A study of Homo sapiens with 12 samples.

Results

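The genes of the RUNX transcription factors, RUNX1, RUNX2 and RUNX3, and of their partner CBFB were examined for open chromatin in ARPE-19 and H7 cells. Members were all ATAC-seq peaks within 50 kb of the span of each gene on hg19, a rule of position that uses no measured value. It took 57 of the 170706 peaks in 6 lists, 50 in ARPE-19 and 7 in H7, which merged into 29 of the 84664 regions of the genome. ATAC-seq marks open chromatin by the insertions of the Tn5 transposase, and a peak is a stretch where they pile up over the local background. ARPE-19 is an established retinal pigment epithelial line, grown here in DMEM with fetal bovine serum, and H7 is an embryonic stem cell line, grown in mTeSR Plus. Each line had 3 libraries of 500000 cells, with no treatment or genetic change named. The labels do not say whether replicates were separate cultures, so the p-values cover library-to-library spread alone, which may be technical. No RNA was measured in these libraries, and the design text names chromatin accessibility as what was examined.

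RUNX proteins bind DNA through the Runt domain and switch target genes on or off. RUNX1 is best known as a master regulator of blood formation, RUNX2 of bone and cartilage formation, and RUNX3 for its part in T cells, sensory neurons and tumour suppression. CBFB, the core binding factor beta subunit, does not touch DNA itself but strengthens the binding of each RUNX protein and protects it from breakdown. RUNX genes are transcribed from a distal promoter (P1), at the 5′ end of the gene span, and a proximal promoter (P2) inside it, and RUNX proteins can bind their own promoters. RUNX genes are not classical markers of retinal pigment epithelium or of embryonic stem cells.

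The distal promoters of RUNX2 and RUNX3 are shown because they share a stretch with RUNX sites. At the 5′ end of RUNX2 a peak was called in ARPE-19 replicate 3 and H7 replicate 1 alone, and at that of RUNX3 in no library. The core letters searched were TGTGGT, on both strands, and the capitals mark matches, which read ACCACA on the strand shown. Sequences are those of RefSeq on GRCh38.p14, 5′ to 3′ from 250 bases before the start site. The RUNX2 sequence ends 30 bases after the start, and the RUNX3 sequence at the base before its start. The last 2 bases of the shared stretch lie beyond the end of the RUNX2 sequence shown.
RUNX2 distal promoter, chr6:45328080-45328359, plus strand: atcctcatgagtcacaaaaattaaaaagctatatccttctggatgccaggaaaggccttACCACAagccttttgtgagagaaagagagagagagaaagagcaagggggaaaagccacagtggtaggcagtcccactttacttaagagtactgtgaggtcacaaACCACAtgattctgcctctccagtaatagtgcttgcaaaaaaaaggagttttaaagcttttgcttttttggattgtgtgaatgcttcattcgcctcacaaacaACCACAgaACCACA
RUNX3 distal promoter, chr1:24965011-24965260, minus strand: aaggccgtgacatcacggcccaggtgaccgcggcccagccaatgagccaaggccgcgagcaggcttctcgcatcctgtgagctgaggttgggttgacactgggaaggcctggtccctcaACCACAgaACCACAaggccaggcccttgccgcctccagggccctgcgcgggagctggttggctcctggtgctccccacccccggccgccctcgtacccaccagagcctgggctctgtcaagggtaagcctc
Shared stretch: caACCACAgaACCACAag

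The shared stretch is 18 bases long and holds 2 of the matches. It ran from base 15 to base 32 after the RUNX2 start, and from base -133 to base -116 at RUNX3. Over 35116 promoters of 300 bases, 0.0057% held it, and these were the 2 promoters shown. The RUNX2 distal promoter held 4 matches and that of RUNX3 held 2 in the 300 bases from 250 before to 50 after the start, where 13.1% of all promoters held at least 1 match and 1.31% at least 2. The proximal promoters of RUNX1, RUNX2 and RUNX3 held 0 matches. The RUNX2 distal promoter had a GC content of 42.7% and 2 CpG dinucleotides, against 76% and 39 in its proximal promoter. For RUNX3 the values were 66.3% and 15 at the distal and 76% and 38 at the proximal promoter, and for the RUNX1 proximal promoter they were 72% and 40. A match describes the letters and does not show binding. Promoters of the RUNX1 distal start and of CBFB were not analysed here.

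**Figure D1:**
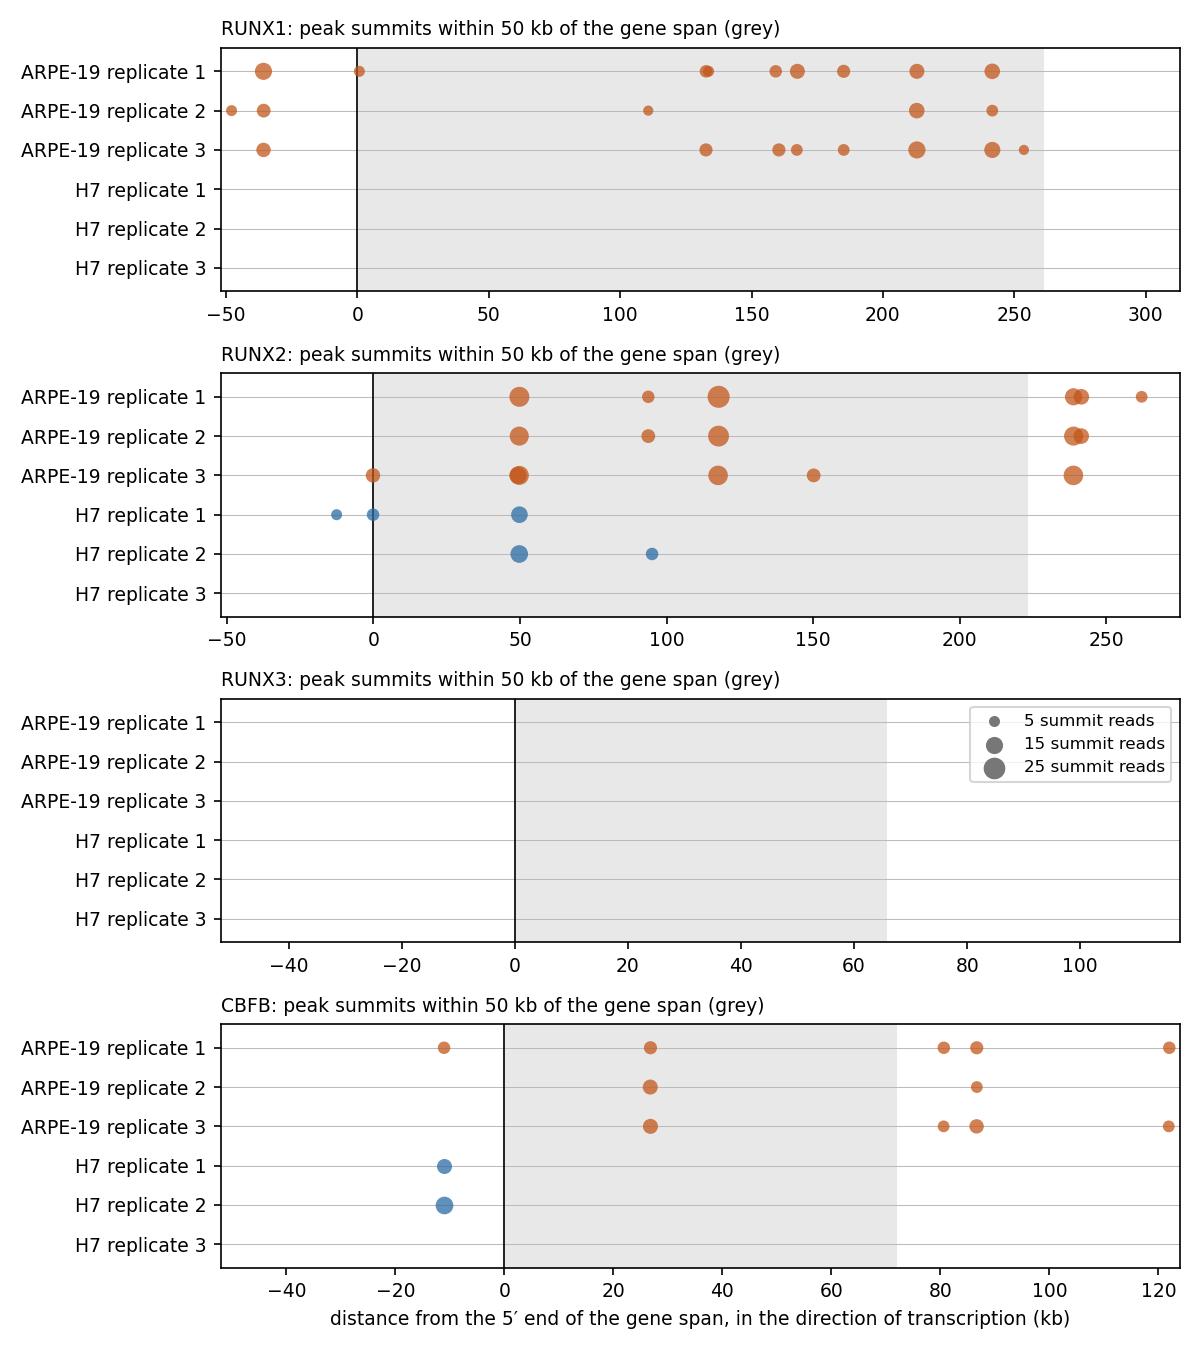
Position of every peak summit in the windows of RUNX1, RUNX2, RUNX3 and CBFB, as distance in kb from the 5′ end of the gene span in the direction of transcription, 1 row per library. Grey marks the gene span and the area of a point grows with the reads at the summit; RUNX1 has points in ARPE-19 rows only, RUNX2 and CBFB in both lines, and RUNX3 has 0 points.

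Peaks near these genes were called mostly in ARPE-19, as were peaks of the whole genome, where the ARPE-19 lists were on average 3.53 times as long. The RUNX1 window held 9, 5 and 8 peaks in ARPE-19 replicates 1, 2 and 3 and 0 in each H7 library. The RUNX2 window held 6, 5 and 6 in ARPE-19 and 3, 2 and 0 in H7. The CBFB window held 5, 2 and 4 in ARPE-19 and 1, 1 and 0 in H7, and the RUNX3 window 0 in all 6 libraries. In the windows of RUNX1, RUNX2 and CBFB every ARPE-19 library thus had more peaks than every H7 library. Over stretches of the autosomes as long as these windows, the median was 5, 4.67 and 2.33 peaks per ARPE-19 library. Per H7 library it was 1.33, 1 and 0.667. The share of stretches where the lines stay apart in this way was not counted, so it is not shown to be particular to these genes. The difference between the lines was 7.33 peaks per library for RUNX1 (SE 1.20), 4 for RUNX2 (SE 0.94) and 3 for CBFB (SE 0.94), each with a two-sided exact permutation p of 0.1 (n = 3 per line). With 3 libraries against 3, 0.1 is the smallest p this test can give, so none of the 8 tests made, 2 for each gene, could pass 0.05.

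The lists themselves differed in length, with 40110 to 48460 peaks in ARPE-19 and 8622 to 15351 in H7, a ratio of means of 3.53, and H7 replicate 3, which had no peak in any of the windows, was the shortest. For RUNX2 the ratio of mean peak numbers was 3.4, close to that of the lists. Per 10000 peaks of the list, RUNX2 peaks numbered 1.35, 1.25 and 1.24 in ARPE-19 and 1.95, 1.46 and 0 in H7. The means were 1.28 ± 0.062 and 1.14 ± 1.02 (SD, n = 3, exact permutation p = 1), and without H7 replicate 3 the H7 mean was the higher, at 1.71. For CBFB the means were 0.816 ± 0.31 and 0.460 ± 0.40 (SD, n = 3, exact permutation p = 0.4), and the values of the lines overlapped. The CBFB difference, 0.356 in this window, depended on its width and on 1 library: it was 1.02 with 100 kb on each side and 0.227 in the gene span alone (exact permutation p = 0.1 in each, n = 3 per line), and 0.126 without H7 replicate 3. The RUNX2 difference was 0.14, and 0.594 with 100 kb. For RUNX1 they were 1.64 ± 0.39 and 0 (SD, n = 3, exact permutation p = 0.1). At the RUNX1 share of the ARPE-19 lists, the H7 lists together would have held 6.18 RUNX1 peaks. This takes weak and strong peaks to be lost alike. RUNX1 peaks in ARPE-19 had a median percentile of -log10 q of 24.5 in their lists, where 100 would be the strongest peak. With the 8622 strongest peaks of every library the RUNX1 window held 0 peaks in both lines, so 6.18 is no expectation for lists cut by strength. Relative to list length, the lines did not overlap at RUNX1 and overlapped at RUNX2 and CBFB in windows of 50 kb. At RUNX2 the overlap came from the 0 of H7 replicate 3, as H7 replicates 1 and 2 lay above every ARPE-19 library.

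**Figure D2:**
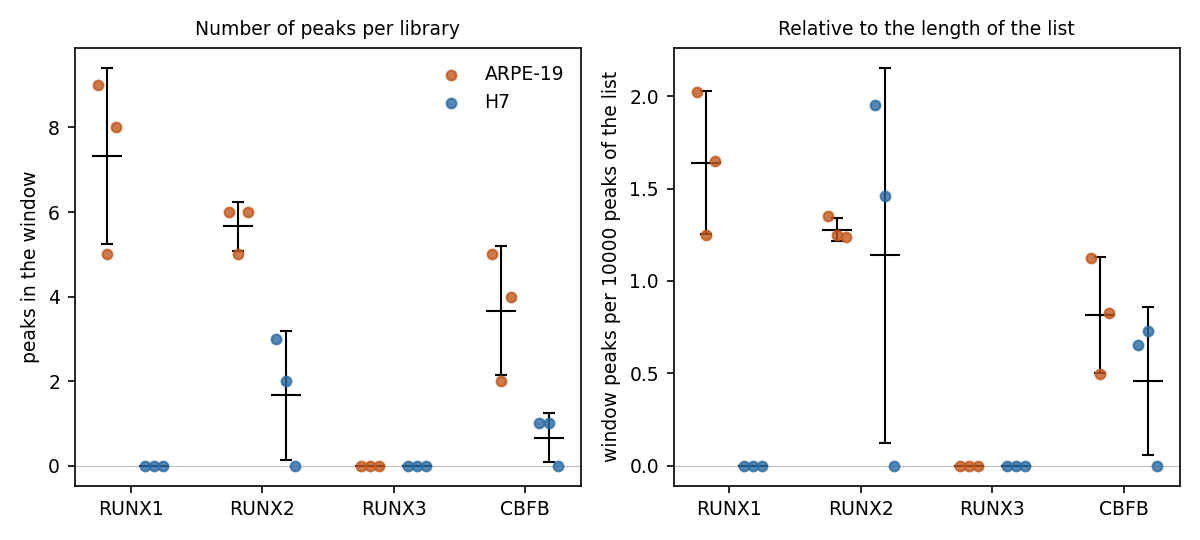
Peaks within 50 kb of each gene per library, as a number (left) and per 10000 peaks of the library's list (right). Points are libraries, bars the mean and SD of 3; on the right the lines overlap for RUNX2 and CBFB and stay apart for RUNX1.

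Windows differed in length, so density allows the genes to be compared. In ARPE-19 the order was CBFB with 2.13 ± 0.89 peaks per 100 kb, RUNX1 with 2.03 ± 0.58, RUNX2 with 1.76 ± 0.18 and RUNX3 with 0 (SD, n = 3), against 1.54 ± 0.145 over the autosomes. The first 3 genes overlapped one another in their library values. In H7 the order was RUNX2 with 0.516 ± 0.47, CBFB with 0.388 ± 0.34, and RUNX1 and RUNX3 with 0, against 0.433 ± 0.12 over the autosomes, and RUNX2 and CBFB again overlapped. Of the ARPE-19 peaks, 18 of 22 lay inside the RUNX1 span, at 2.29 per 100 kb and library against 1.33 in its flanks. At RUNX2 10 of 17 lay inside, with 1.5 per 100 kb and library inside and 2.33 in the flanks, and at CBFB 3 of 11, with 1.39 and 2.67.

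The 29 regions were classed by the libraries that called them. Regions called in all 3 libraries of ARPE-19 and 0 of H7, here ARPE-19-only, numbered 7 of 29 (24.1%), where 26.0% of all regions of the genome were of this class. There were 3 at RUNX1, 2 at RUNX2 and 2 at CBFB. Regions called in all 3 libraries of H7 and 0 of ARPE-19, here H7-only, numbered 0, where 1.82% of all regions were of this class. Regions called in both lines numbered 3 (10.3%), 2 at RUNX2 and 1 at CBFB, against 8.51% over the genome. Another 12 (41.4%) were called in a single library, against 46.4% over the genome. The shares over the 29 regions were thus near those of the genome.

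RUNX1, on chromosome 21 from 36160098 to 36421595 and read on the minus strand, had 13 regions, all in ARPE-19. The region with the highest rank among its 3 ARPE-19-only regions lay inside the gene from 36208491 to 36208985, 213 kb from the 5′ end. Its summit had 11, 12 and 15 reads in replicates 1, 2 and 3, and the authors' fold enrichment was 6.97, 7.29 and 9.86. Its percentiles of -log10 q in the 3 lists were 55.0, 61.5 and 77.6, where 100 would be the strongest peak, and the summits of the 3 libraries lay within 47 bases. The next, from 36457202 to 36457486, lay 35.7 kb upstream of the 5′ end, with 15, 9 and 10 summit reads and fold enrichments of 8.53, 6.57 and 6.72. The other ARPE-19-only region, from 36179777 to 36180066, lay 242 kb inside the gene, with 12, 6 and 13 summit reads and summits within 19 bases. These regions were moderate in strength, and their positions recurred closely between replicates.

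At the 5′ end of RUNX1, where its distal transcript starts, the nearest region ran from 36420677 to 36420917. It was called in ARPE-19 replicate 1 alone, 0.678 kb from the end of the span, with 5 summit reads, a fold enrichment of 3.98 and a percentile of 6.32 in its list. In replicates 2 and 3 the nearest peaks lay 35.6 and 35.7 kb away, in the upstream region described above. Of the other regions, 3 were called in ARPE-19 replicates 1 and 3, at 133, 167 and 185 kb inside the gene, with 6 to 11 summit reads. The 7 called in a single library, the region at the 5′ end among them, had 4 to 8. From the region at the 5′ end to the next, 111 kb inside the gene, no peak was called, and the 10 regions from there on lay up to 254 kb inside. The stretch of RUNX1 nearest to its distal start was thus the emptier one. In H7 the peak nearest to the gene span lay 412, 457 and 421 kb away in replicates 1, 2 and 3.

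The absence of RUNX1 peaks in H7 has to be read with the calling limit. Where the local background was that of the genome, a peak needed at least 4 summit reads in each ARPE-19 library and 5, 5 and 6 in the H7 libraries, or 7.66 to 9.48 times that background in H7. A higher local background raises this limit, and at RUNX1 peaks in ARPE-19 it reached 2.27 times that of the genome. Of the 22 RUNX1 peaks in ARPE-19, 20 had summit reads above 9.48 times the background of their own library, with a median of 17.7 and a highest value of 35.3. The limits of the ARPE-19 libraries were themselves 8.28, 8.73 and 9.41 times their background, so a called peak was already near 9.48 or above it. At RUNX2 the count was 17 of 17 and at CBFB 11 of 11, and over all ARPE-19 peaks it was not taken. This count therefore does not show that the RUNX1 peaks could have been called in H7. A region without a peak did not pass the limit of its library, which does not show it closed. Of 7692 stretches of the autosomes as long as the RUNX1 window (361 kb), 14.6% had 0 peaks in all H7 libraries. These include the 5.67% with 0 peaks in any library of either line, and centromeres and unsequenced stretches were not left out. A share of 7.32% had 0 peaks in H7 and at least 1 in every ARPE-19 library. Among the 2391 with at least as many peaks per ARPE-19 library as RUNX1 on average, 4.68% had 0 peaks in all H7 libraries. These stretches were not matched to RUNX1 for the strength of their peaks. RUNX1 peaks were also weak for their lists. When the 8622 strongest peaks of every library were taken, the RUNX1 window had 0 peaks in both lines, so the contrast rests on peaks below that rank. Shorter H7 lists and lower accessibility cannot be told apart here, and how far list length sets the RUNX1 result was not tested.

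RUNX2, on chromosome 6 from 45296054 to 45518819 on the plus strand, had 11 regions and the strongest peaks of the 4 genes. Its most widely called region lay inside the gene from 45345732 to 45346201, 49.8 kb from the 5′ end. It was called in 3 ARPE-19 and 2 H7 libraries, all but H7 replicate 3. The summit had 21, 19 and 19 reads in ARPE-19 replicates 1, 2 and 3, and 14 and 16 in H7 replicates 1 and 2. Divided by the genome-wide background of the library, this was 43.2 ± 1.63 in ARPE-19 (SD, n = 3) and 21.4 and 27.0 in the 2 H7 libraries, so that the lines did not overlap. Percentiles within the lists overlapped, at 77.9 to 84.2 in ARPE-19 and 79.6 and 93.6 in H7. All 5 summits fell within 60 bases. In ARPE-19 replicate 3 a separate peak, from 45345255 to 45345432, lay 318 bases before that library's own peak in the region.

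At the 5′ end of RUNX2 a region called in both lines ran from 45295772 to 45296180. It came from ARPE-19 replicate 3, with 10 summit reads and a fold enrichment of 7.72, and from H7 replicate 1, with 7 summit reads and a fold enrichment of 4.84. The ARPE-19 peak began 282 bases before the 5′ end and stopped 43 bases short of it, while the H7 peak began 119 bases before and ran 126 bases past it. They shared 77 bases, and their summits were 20 bases apart. The distal transcript of RUNX2, whose promoter is printed above from GRCh38, is known to start at this end of the gene; the sequence was not placed on hg19. In the other 4 libraries no peak was called there.

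The highest single percentile at the RUNX genes, 93.6, was that of H7 replicate 2 in the region called in both lines at 49.8 kb. By mean percentile over the libraries that called a region, an ARPE-19-only region inside RUNX2 ranked highest, at 89.1 against 83.4. It ran from 45413533 to 45414046, 118 kb from the 5′ end. Its summit had 26, 23 and 20 reads in replicates 1, 2 and 3, with fold enrichments of 11.6, 11.9 and 9.75 and percentiles of 92.8, 92.3 and 82.1. The other ARPE-19-only region lay downstream of the gene, from 45534657 to 45534931, with 15, 19 and 20 summit reads. Neither was called in H7. Summit reads at these regions were 31.1 to 53.8 times the genome-wide background of the ARPE-19 libraries, where a peak in H7 needed 7.66 to 9.48 times at that background. A higher local background raises this limit, and in ARPE-19 it was 2.13 to 2.77 times that of the genome at these regions. The limit of H7 at these regions is therefore not known. Every ARPE-19 library and no H7 library had a peak in these regions. In H7 alone, 2 regions of RUNX2 were called, each in 1 library. They are named although they were singled out after their values were seen. From 45391040 to 45391196 H7 replicate 2 had 7 summit reads, and from 45283421 to 45283575 H7 replicate 1 had 5, the fewest it called at the genome-wide background. The other 5 RUNX2 regions, in ARPE-19 alone and with the separate peak of replicate 3 among them, had 6 to 15 summit reads: 2 were called in replicates 1 and 2, at 93.8 kb inside the gene and 241 kb from its 5′ end, and 3 in a single library. With the 8622 strongest peaks of every library, the RUNX2 window kept a mean of 2 peaks in ARPE-19 and 0.667 in H7 (exact permutation p = 0.3, n = 3 per line).

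**Figure D3:**
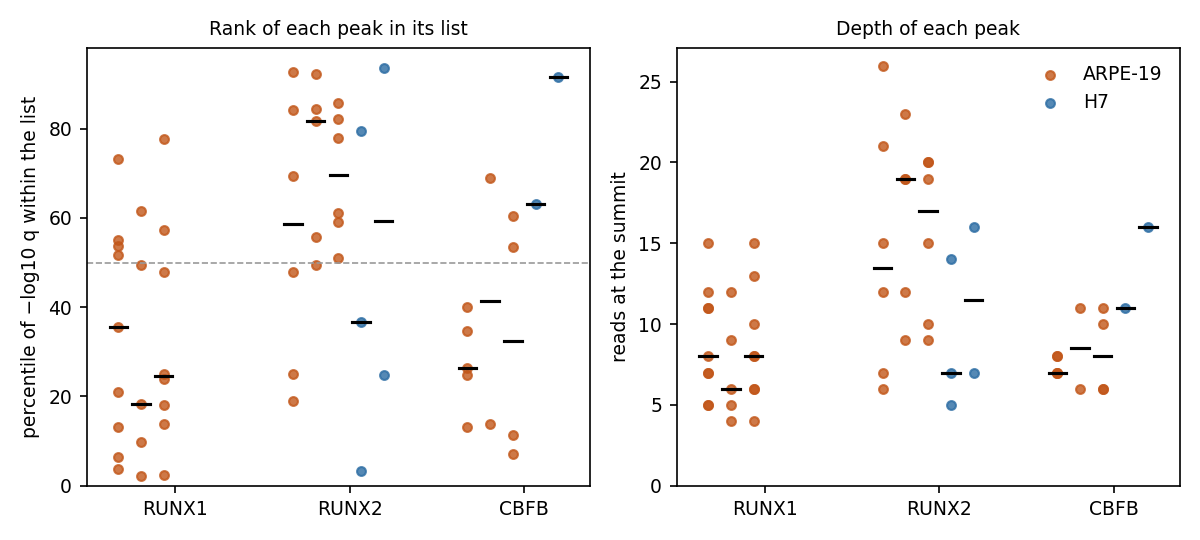
Strength of each peak by gene and library, as percentile of -log10 q within its own list (left, dashed line at the list median) and as reads at the summit (right). Points are peaks and black bars medians of a library; most RUNX2 peaks in ARPE-19 lie above the list median, and most RUNX1 and CBFB peaks in ARPE-19 below it.

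Peaks at RUNX2 stood higher in the ARPE-19 lists than peaks at RUNX1 in each library. The median percentile was 58.7, 81.7 and 69.5 at RUNX2 in replicates 1, 2 and 3, and 35.6, 18.2 and 24.5 at RUNX1. At CBFB it was 26.3, 41.5 and 32.4, which overlapped RUNX1 and lay below RUNX2. Over the 3 ARPE-19 libraries, 13 of 17 RUNX2 peaks, 7 of 22 RUNX1 peaks and 3 of 11 CBFB peaks were above the median of their list. Median summit reads were 15 at RUNX2, 8 at RUNX1 and 7 at CBFB. Peaks of 1 region in several libraries are not separate observations, and these ranks were not tested. In the table of GRCh38 the span of SUPT3H, a gene of a transcription coactivator subunit, overlaps that of RUNX2, so a peak there may belong to either gene.

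RUNX3, on chromosome 1 from 25226002 to 25291612 on the minus strand, had no peak in its window in any library. Of 16805 stretches of the autosomes as long as this window (166 kb), 10.0% had 0 peaks in all 6 libraries. The gap around the gene was longer than the window. The last peak before it ended at 25120549, 105 kb from the gene, in ARPE-19 replicate 2, and the first after it began at 25558927, 267 kb away, in ARPE-19 replicate 1. This gap of 438 kb was among the 159 of 81748 autosomal gaps between regions that were at least as long, and such gaps made up 7.59% of the length of the autosomes. Centromeres and unsequenced stretches, where no peak can be called, were not left out of either comparison. Their part in the 10.0% and the 7.59% was not counted, so these shares do not show how common such a gap is in sequenced stretches. The nearest peak to the RUNX3 span lay 154, 105 and 154 kb away in ARPE-19 replicates 1, 2 and 3 and 256, 256 and 465 kb away in H7. The lines could not be set apart at this gene.

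CBFB, on chromosome 16 from 67063050 to 67134958 on the plus strand, had 5 regions. None lay at its 5′ end, where the nearest peak was 10.9 kb away in ARPE-19 replicate 1, 26.6 and 26.7 kb in replicates 2 and 3, and 10.9, 11.0 and 378 kb in the H7 libraries. The region nearest to the 5′ end, from 67051880 to 67052137, lay upstream of it and was called in both lines. It had 7 summit reads in ARPE-19 replicate 1, and 11 and 16 in H7 replicates 1 and 2. Divided by the genome-wide background this was 14.5 in ARPE-19 against 16.8 and 27.0 in H7, and the percentile within the list was 26.3 against 63.2 and 91.6. Here the H7 values were the higher, and ARPE-19 replicates 2 and 3 had no peak. These 2 peaks were the only ones of H7 in the CBFB window.

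Inside CBFB a single region was called, from 67089675 to 67089941, 26.8 kb from the 5′ end and ARPE-19-only. It had 8, 11 and 11 summit reads in replicates 1, 2 and 3, fold enrichments of 5.68, 8.23 and 7.80, and summits within 38 bases. The other ARPE-19-only region lay downstream, from 67149581 to 67149825, with 8, 6 and 10 summit reads. The other 2 regions were downstream as well, each called in ARPE-19 replicates 1 and 3, with 6 to 7 summit reads. In the table of GRCh38, PHAF1 and B3GNT9 follow CBFB and CES4A precedes it, so a region in a flank may belong to one of those genes. With the 8622 strongest peaks of every library, ARPE-19 had 0 peaks in the CBFB window and H7 a mean of 0.667, which turned the direction (exact permutation p = 0.4, n = 3 per line).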

How the data were processed

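Peak lists of 6 ATAC-seq libraries were used; 6 samples of 4C were not analysed here. The authors called peaks per library with MACS2 on hg19, per the submitters' processing notes, which also name bedtools; versions, aligner, handling of duplicates and any Tn5 shift are not given in the sources used here. Unshifted reads would move summits by a few bases, and duplicates would raise summit reads. The deposited lists give a score (10 times -log10 q as a whole number), a fold enrichment (ratio of summit to local background within the library), and -log10 p and -log10 q. These are the authors' values per peak, used to rank or filter within a list. No read totals are given; depth is known only as the genome-wide background recovered below.

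Gene spans on hg19 came with the rule for members, and directions of transcription from RefSeq promoters, for CBFB from general knowledge. The tables of genes and promoters were of GRCh38.p14, so they served for names, neighbours and sequence, and no position was carried between builds. Exons, introns and starts inside the genes, and lists of RUNX partners, RUNX targets and cell type markers, were therefore not analysed here. Peaks of any libraries sharing at least 1 base were merged into regions, positions being 1-based. Summit reads and local background were solved from fold, (reads + 1) / (background + 1), and the Poisson -log10 p, and the deposited -log10 p was regained within 0.001 for 100% of member peaks. The most frequent background of a list was taken as genome-wide. It was 0.483, 0.458 and 0.425 in ARPE-19 and 0.653, 0.592 and 0.633 in H7 replicates 1, 2 and 3. Libraries were compared by exact two-sided permutation over 20 assignments; 3 against 3 gives at least p = 0.1. Stretches were consecutive pieces of autosomes, with peaks counted by summit. Stretches and gaps were taken from the first to the last peak of each autosome, and centromeres and unsequenced sequence were not masked. On simulated data 99.98% of 5000 peaks gave the right reads and 100% of 200 planted regions of each line were found. The simulated peaks were made with the same formula, and those of a region always overlapped. This checks the code and not how well the formula or the merging suits the deposited lists.

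Regions named were those nearest the 5′ end, called in both lines, the 3 ARPE-19-only or H7-only ones of highest mean percentile, and, where no H7-only region existed, the 2 H7 peaks of highest percentile. Members, lists and rules were chosen with earlier results of these data known. Alternatives tried were the 8622 strongest peaks per library, only peaks with a -log10 q of 5 or more, the gene span alone or with 100 kb, peaks over at least 50% of a region, 2 of 3 libraries, each library left out, and a replicate block. The scripts ran on Python 3.11.15 with scipy 1.17.1, pandas 2.3.3 and numpy 2.4.6, and figures were drawn with matplotlib 3.10.9.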

Additional observations from a re-analysis of the deposited data

How the results depend on the processing

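RUNX1 had more peaks in ARPE-19 in every setting run except the same number of peaks per library, which gave 0 in both lines; RUNX3 had 0 peaks in every setting. The number of RUNX2 peaks was higher in ARPE-19 in every setting, and that of CBFB in all but the same number of peaks, where it was -0.667 per library. Per 10000 peaks, the difference of ARPE-19 from H7 turned to -0.171 for RUNX2 in the gene span alone, and for CBFB to -0.182 with a -log10 q of at least 5 and -0.773 with the same number of peaks. Without H7 replicate 3 it was -0.429 for RUNX2, the lowest when a library was left out, the highest being 0.549. On the same scale other settings moved it up: for RUNX2 from 0.14 to 0.594 with 100 kb, 1.55 with the same number of peaks and 0.313 under the stricter -log10 q, and for CBFB from 0.356 to 1.02 with 100 kb. For CBFB it was 0.227 in the gene span alone and lay between 0.126 (without H7 replicate 3) and 0.515 on leaving out single libraries. The causes were not tested. ARPE-19-only regions, 3, 2 and 2 at RUNX1, RUNX2 and CBFB, became 0, 0 and 0 with the same number of peaks, which shortens every list but that of H7 replicate 3, and 6, 4 and 4 by the looser rule of 2 of 3 libraries. They became 2, 1 and 1 at RUNX1, RUNX2 and CBFB in the gene span alone, and 4 at RUNX2 with 100 kb. With a -log10 q of at least 5 they became 2 at RUNX1 and 1 at CBFB. With peaks over at least 50% of a region they became 2 at RUNX1 and 3 at RUNX2, and stayed 2 at CBFB. Leaving out a library gave 3 to 6 at RUNX1 (6 without ARPE-19 replicate 2), 2 to 4 at RUNX2 (4 without ARPE-19 replicate 3) and 2 to 4 at CBFB (4 without ARPE-19 replicate 2). H7-only regions numbered 0 under both rules run.

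Replicate numbers do not pair the libraries by any label, and the deviations of same-numbered libraries over 2704 bins of 1 Mb correlated by -0.010, -0.045 and 0.062. With a replicate block the differences were unchanged by construction, such as 7.33 peaks for RUNX1, with an exact sign-flip permutation p of 0.25, the smallest it can give. What can be called depends on the background. Where the local background was that of the genome, a peak needed at least 4 summit reads in ARPE-19 and 5 to 6 in H7. That background, the only measure of depth here, was 0.425 to 0.483 in ARPE-19 and higher in H7, at 0.592 to 0.653. Median summit reads at RUNX1 and CBFB in ARPE-19 were 8 and 7. A part of depth in the missing H7 peaks was not tested.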
